A study of Homo sapiens with 9 samples.

Results

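The 10 genes described here encode subunits of the main transcriptional repressor complexes of chromatin. They are EZH2, EZH1, EED and SUZ12 of Polycomb repressive complex 2 (PRC2), BMI1, CBX2 and CBX7 of Polycomb repressive complex 1 (PRC1), and KDM1A, RCOR1 and HDAC2 of the complex of LSD1 with CoREST. They were picked by gene symbol from the 58381 genes of the deposited tables, with earlier results of these data known. All 10 passed the filter on low counts, which left 17235 genes for testing.

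PRC2 places methyl groups on lysine 27 of histone H3 through its alternative catalytic subunits EZH2 and EZH1, which need EED and SUZ12 for activity. PRC1 attaches ubiquitin to histone H2A and compacts chromatin, and its CBX subunits bind the mark that PRC2 leaves. LSD1, the product of KDM1A, removes methyl groups from lysine 4 of histone H3 and works with the scaffold CoREST (RCOR1) and the deacetylases HDAC1 and HDAC2, some of which are also shared with the NuRD complex. In Ewing sarcoma EZH2 is known as a gene raised by the fusion oncoprotein EWSR1::FLI1, BMI1 as a gene that supports tumour growth, and LSD1 with NuRD as a partner through which the fusion silences other genes.

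RNA was sequenced from TC-32, an established human Ewing sarcoma cell line that carries EWSR1::FLI1. The question was what ETS1, an ETS family transcription factor, does to gene expression while the fusion is present. Cells of all groups kept the fusion, and the treatment protocol describes a lentiviral pLOC vector, selection in puromycin and sorting of single cells. The RFP group carried the vector with a red fluorescent protein, and the ETS1-Low and ETS1-High groups carried it with a human ETS1 cDNA, at a lower level in ETS1-Low and in ETS1-High at about the level that TC-32 cells reach once the fusion is depleted. Each group had 3 libraries. How many clones each group rests on is not in the labels, nor whether RFP cells were cloned or whether the 3 libraries came from separate cultures, so the p-values measure the spread between libraries, which may be technical, and a difference between groups cannot be told apart from a difference between clones.

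Totals of expected counts ran from 39484704 to 46654734 per library. ETS1 had 2.00 ± 0.17 CPM (counts scaled to library size, with TMM factors) in RFP, 10.6 ± 0.30 in ETS1-Low and 19.1 ± 0.81 in ETS1-High (SD, n = 3), and the groups did not overlap. Of 8 Ewing sarcoma markers, all were expressed, with a summed level of 982 to 999 FPKM in RFP, 1315 to 1334 in ETS1-Low and 1359 to 1368 in ETS1-High. The summed level of 13 markers of other cell types was 110.4 to 113 FPKM in RFP, 184 to 189 in ETS1-Low and 177 to 181 in ETS1-High, most of it from COL3A1 and KRT18. Of the 13, PTPRC (leukocytes), CD3E (T cells), VWF (endothelium), EPCAM and CDH1 (epithelium) and MYOD1 (muscle) had at most 10 counts per library, and 7 were tested, of which 4 were called higher and 2 lower in ETS1-High against RFP, and 3 higher and 2 lower in ETS1-Low against RFP. Among all tested genes 37.0% were called higher and 37.2% lower in ETS1-High against RFP, and 37.9% and 36.2% in ETS1-Low against RFP. The endothelial marker PECAM1 went from 1.70 ± 0.12 CPM in RFP to 3.69 ± 0.23 in ETS1-Low, a difference not called on FPKM values, and 5.17 ± 0.30 in ETS1-High. The fibroblast collagen COL3A1 rose by 0.95 in ETS1-Low and 1.35 in ETS1-High, and COL1A1 was at -0.47 and 0.37, the latter not called on FPKM values. The epithelial keratin KRT18, unlike EPCAM and CDH1, was expressed in all groups, and it rose by 0.98 in ETS1-Low and 0.46 in ETS1-High. The monocyte marker CD14 fell by 2.55 in ETS1-Low and 2.16 in ETS1-High. CD68 fell by 1.25 in ETS1-High and was at 0.34 in ETS1-Low, not called. CD14 was low throughout, with at most 73 counts in an RFP library, 9 in ETS1-Low and 19 in ETS1-High. The part of these markers in the results was not tested. In bulk RNA of a cell line, a change in the share of cells that express a gene and a change in RNA per cell cannot be told apart.

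The stretches upstream of the start sites are shown for the 4 genes on which the results turn most: KDM1A, which fell at both ETS1 levels, EZH1, which fell at the higher level, EED, with the largest rise in ETS1-High, and EZH2. Each is 250 bases long, read 5′ to 3′ on the gene's strand from the RefSeq promoter table (GRCh38.p14), and capitals mark GGAA or its reverse complement TTCC, the core letters that proteins of the ETS family, ETS1 and FLI1 among them, bind.
KDM1A, chr1:23019218-23019467, plus strand: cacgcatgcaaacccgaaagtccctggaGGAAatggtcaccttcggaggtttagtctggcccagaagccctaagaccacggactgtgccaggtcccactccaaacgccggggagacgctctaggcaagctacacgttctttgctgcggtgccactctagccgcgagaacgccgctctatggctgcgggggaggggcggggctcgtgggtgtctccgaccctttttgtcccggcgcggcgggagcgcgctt
EZH1, chr17:42745041-42745290, minus strand: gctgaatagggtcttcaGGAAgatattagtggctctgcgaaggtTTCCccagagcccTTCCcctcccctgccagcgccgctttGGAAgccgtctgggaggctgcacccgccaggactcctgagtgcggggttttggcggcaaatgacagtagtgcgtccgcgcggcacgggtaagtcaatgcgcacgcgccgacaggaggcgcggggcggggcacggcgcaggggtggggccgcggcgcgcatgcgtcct
EED, chr11:86244503-86244752, plus strand: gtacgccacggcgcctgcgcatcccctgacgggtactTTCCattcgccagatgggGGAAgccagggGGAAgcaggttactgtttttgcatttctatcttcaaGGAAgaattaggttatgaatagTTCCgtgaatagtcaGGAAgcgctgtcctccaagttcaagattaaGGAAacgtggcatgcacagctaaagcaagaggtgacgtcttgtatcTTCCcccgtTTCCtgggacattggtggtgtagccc
EZH2, chr7:148884292-148884541, minus strand: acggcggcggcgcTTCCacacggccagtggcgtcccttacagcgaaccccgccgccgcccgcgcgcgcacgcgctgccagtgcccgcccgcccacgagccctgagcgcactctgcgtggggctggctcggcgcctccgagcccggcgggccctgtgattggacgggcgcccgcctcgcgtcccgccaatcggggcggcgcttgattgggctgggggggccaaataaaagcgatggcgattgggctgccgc
The EED window lies inside the span annotated for EED but outside its exons, and the table holds another EZH2 window, with 2 matches and 39 CpG dinucleotides, that is not shown. The windows of the other 3 genes reach into annotated exons of the gene, by 25 bases for KDM1A, 9 for EZH1 and 30 for the EZH2 window shown. The core letters stood 1 time in the KDM1A window, 4 times in that of EZH1, 9 times in that of EED and 1 time in the EZH2 window shown. A window with at least 1 match is common: 92.7% of the 35116 promoters in the table had one. Of the 10 genes 9 were in the table and CBX2 was not. None of these 9 had the longer ETS form CCGGAAG (8.52% of all promoters), the tandem GGAAGGAA (3.06%), or the E2F forms TTTGGCGC (0.55%) and GGCGGGAA (2.72%), all searched on both strands, where every hit of the longer ETS form and of the tandem also counts as a GGAA hit. CpG dinucleotides numbered 11 upstream of EED, 23 upstream of KDM1A, 26 upstream of EZH1 and 38 in the EZH2 window shown, against a median of 11 over all promoters. These matches describe letters only and were not tested for binding.

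In ETS1-High against RFP, 5 of the 10 genes were called higher (EZH2, EED, SUZ12, BMI1, RCOR1), 4 were called lower (KDM1A, EZH1, CBX2, CBX7) and HDAC2 was not called, at an adjusted p under 0.05 in the edgeR quasi-likelihood test. Over all genes tested 74.2% were called, 37.0% higher and 37.2% lower. In ETS1-Low against RFP, 6 were called higher (EZH2, EZH1, EED, SUZ12, BMI1, RCOR1) and 3 lower (KDM1A, CBX2, HDAC2), against 74.1% of all genes called, 37.9% higher and 36.2% lower. On the authors' FPKM values EZH1 and RCOR1 had the opposite sign in ETS1-Low against RFP. In ETS1-High against ETS1-Low, 3 were higher (CBX2, RCOR1, HDAC2) and 4 lower (EZH2, EZH1, BMI1, KDM1A), against 59.2% of all genes called, 29.9% higher and 29.3% lower. The RFP libraries are shared by both comparisons with RFP, so those counts are not independent.

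The changes were small. The largest log2 fold change of the 10 genes was -0.58, that of KDM1A in ETS1-High, and none reached 2-fold, while 21.0% of all tested genes were called with at least 2-fold in ETS1-High against RFP and 20.6% in ETS1-Low against RFP. The median size of the log2 fold change was 0.22 for the 10 genes and 0.40 for all tested genes in ETS1-High against RFP, 0.21 and 0.41 in ETS1-Low against RFP, and 0.11 and 0.25 between the ETS1 groups. Libraries of the groups compared did not overlap in CPM for 9 of the 10 genes in ETS1-High against RFP (75.5% of all tested genes), 8 in ETS1-Low against RFP (76.0%) and 7 between the ETS1 groups (63.2%).

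**Figure D1:**
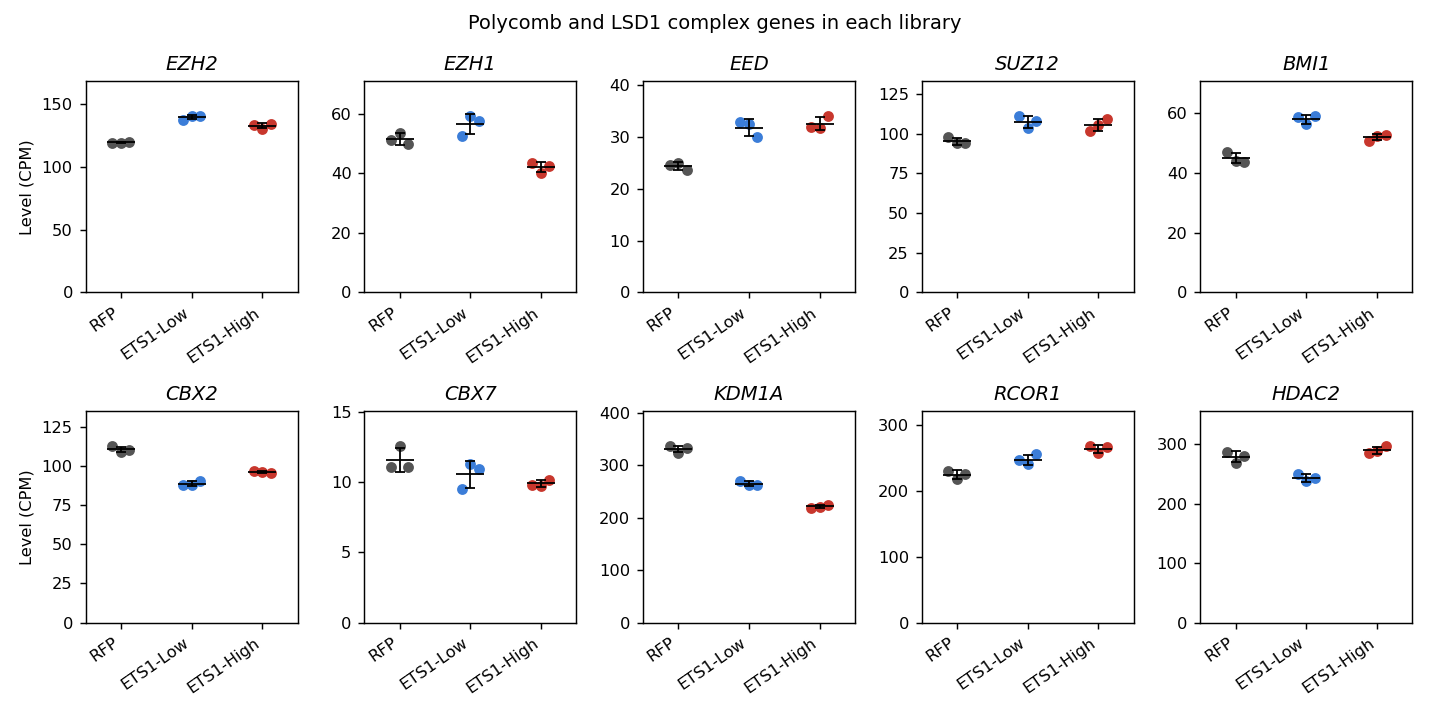
Levels of the 10 genes in CPM (y axis, from 0) in each of the 9 libraries (points), by group (x axis), with bars at the mean and SD of 3 libraries. KDM1A steps down from 324 to 336 in RFP to 262 to 270.3 in ETS1-Low and 218 to 225 in ETS1-High without overlap.

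Levels can be compared between genes only per length, in FPKM. In RFP HDAC2 was highest with 196 ± 8.74 FPKM, followed by KDM1A with 123 ± 1.00, EZH2 with 51.5 ± 0.25, RCOR1 with 44.1 ± 0.42 and CBX2 with 30.8 ± 0.49 (SD, n = 3). SUZ12 (23.9 ± 0.50), EZH1 (21.2 ± 1.71) and BMI1 (19.5 ± 1.06) lay close together, and neighbours in that order had overlapping SD ranges between EZH1 and BMI1. EED had 16.3 ± 0.61 FPKM and CBX7, the chromodomain subunit known from differentiated and stem cells, was lowest with 4.11 ± 0.42. In ETS1-High HDAC2 (187 ± 4.4) and KDM1A (77.0 ± 1.56) stayed at the head, and EZH1 (15.8 ± 0.82) stood below EED (19.4 ± 0.82), the reverse of their order in RFP.

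KDM1A differed most of the 10 genes in ETS1-High against RFP, while EED and BMI1 differed more in ETS1-Low against RFP and EZH1 more between the ETS1 groups. KDM1A had 336, 324 and 333 CPM in the 3 RFP libraries, 270.3, 263 and 262 in ETS1-Low and 218, 221 and 225 in ETS1-High. Every ETS1-Low library lay below every RFP library, and every ETS1-High library below every ETS1-Low library. KDM1A (chromosome 1, 23019443 to 23083689, plus strand, protein coding, on GRCh38) fell by 0.58 on the log2 scale in ETS1-High against RFP (SE 0.03, adjusted p 9.44e-24 in the edgeR quasi-likelihood test), a level 33.0% lower. In ETS1-Low it fell by 0.32 (adjusted p 3.81e-14, edgeR), and from ETS1-Low to ETS1-High it changed by -0.26 (adjusted p 8.11e-11, edgeR). Of all tested genes 37.0% had a larger change than KDM1A in ETS1-High against RFP. The 240 tested genes within 10 Mb of KDM1A had median log2 fold changes against RFP of -0.04 (ETS1-High) and 0.23 (ETS1-Low). From ETS1-Low to ETS1-High their median was -0.24, close to the -0.26 of KDM1A itself. The part of such regional shifts in the result was not tested.

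The other subunits of the LSD1 complex moved otherwise. RCOR1, the CoREST scaffold that ties LSD1 to nucleosomes, had 231, 218 and 226 CPM in RFP, 246, 241 and 256 in ETS1-Low and 267, 257 and 266 in ETS1-High. The groups followed each other upwards without overlap. RCOR1 (chromosome 14, 102592649 to 102730561, plus strand) rose by 0.23 in ETS1-High against RFP (SE 0.03, adjusted p 3.05e-09, edgeR). In ETS1-Low it was called at 0.14 in CPM (adjusted p 7.51e-05, edgeR) but stood at -0.01 and was not called on FPKM values. The step from ETS1-Low to ETS1-High was 0.09 (adjusted p 0.00848, edgeR), and without ETS1-Low replicate 2 it was 0.07 and no longer called. Counts of RCOR1 were not whole in 8 of 9 libraries, as where RSEM divides reads among several genes. How many reads this concerns was not measured, so its level is uncertain. Counts of KDM1A and HDAC2 were not whole in 3 libraries each, those of EZH2 in 2, and those of EZH1, CBX2 and CBX7 in 1 each.

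HDAC2, a deacetylase of the CoREST, NuRD and SIN3 complexes, had 287, 269 and 281 CPM in RFP, 249.7, 238 and 243 in ETS1-Low and 285, 289 and 296 in ETS1-High. ETS1-Low stood below both other groups, which overlapped with each other. HDAC2 (chromosome 6, 113933028 to 114011308, minus strand) fell by 0.20 in ETS1-Low against RFP (SE 0.03, adjusted p 1.08e-07, edgeR) and rose from ETS1-Low to ETS1-High by 0.25 (adjusted p 3.92e-10, edgeR). Between ETS1-High and RFP the difference was 0.06, with a 95% interval of -0.004 to 0.12 (adjusted p 0.0862, edgeR), and without RFP replicate 1 it was 0.08 and called. On FPKM values this difference had the opposite sign, at -0.06. The antisense gene HDAC2-AS2 overlaps HDAC2 and held 14 to 30 counts per library, few beside the at least 9442 counts of HDAC2. On the log2 scale the 3 LSD1 complex genes thus ran from -0.58 to 0.23 in ETS1-High against RFP.

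EZH2, the catalytic subunit of PRC2 in dividing cells, had 119, 119 and 119.9 CPM in RFP, 138, 140.5 and 140.5 in ETS1-Low and 134, 131 and 134 in ETS1-High. Both ETS1 groups lay above RFP, and ETS1-High lay between the other groups without overlap. EZH2 (chromosome 7, 148807257 to 148884321, minus strand) rose by 0.22 in ETS1-Low (SE 0.03, adjusted p 3.59e-09, edgeR) and by 0.15 in ETS1-High (SE 0.03, adjusted p 1.06e-05, edgeR). On FPKM values the rise in ETS1-High was 0.05 and was not called. The difference of -0.07 between ETS1-High and ETS1-Low (adjusted p 0.0388, edgeR) was not called with DESeq2 size factors (-0.06) or without RFP replicate 3 (-0.07), ETS1-Low replicate 2 (-0.07) or 3 (-0.07), or ETS1-High replicate 2 (-0.06) or 3 (-0.08).

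EZH1, the catalytic subunit that is known for weaker methylation and for its presence in resting cells, had 51.0, 53.6 and 49.8 CPM in RFP, 52.6, 59.1 and 57.4 in ETS1-Low and 43.6, 40.1 and 42.4 in ETS1-High. ETS1-High stood below both other groups, and ETS1-Low overlapped with RFP. EZH1 (chromosome 17, 42700275 to 42745049, minus strand) fell by 0.29 in ETS1-High against RFP (SE 0.04, adjusted p 2.65e-08, edgeR) and changed from ETS1-Low to ETS1-High by -0.43 (SE 0.04, adjusted p 3.24e-12, edgeR). Between ETS1-Low and RFP it was called at 0.13 (adjusted p 0.00272, edgeR), but it was -0.05 on FPKM values, and 0.10 and not called without ETS1-Low replicate 2.

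The ratio of EZH2 to EZH1 in FPKM combined these shifts. It was 2.49, 2.22 and 2.59 in the RFP libraries, 2.78, 2.56 and 2.71 in ETS1-Low and 3.25, 3.33 and 3.58 in ETS1-High. The ETS1-High libraries lay above all others, and ETS1-Low overlapped with RFP. The log2 ratio of ETS1-High exceeded that of RFP by 0.48 and that of ETS1-Low by 0.34, each with p = 0.1 in a two-sided exact permutation test, the smallest value that 3 against 3 libraries allow, so this design cannot pass 0.05. For ETS1-Low against RFP the difference was 0.14 (exact permutation p = 0.2). The Benjamini-Hochberg values over the 6 ratio comparisons are no smaller than these.

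**Figure D2:**
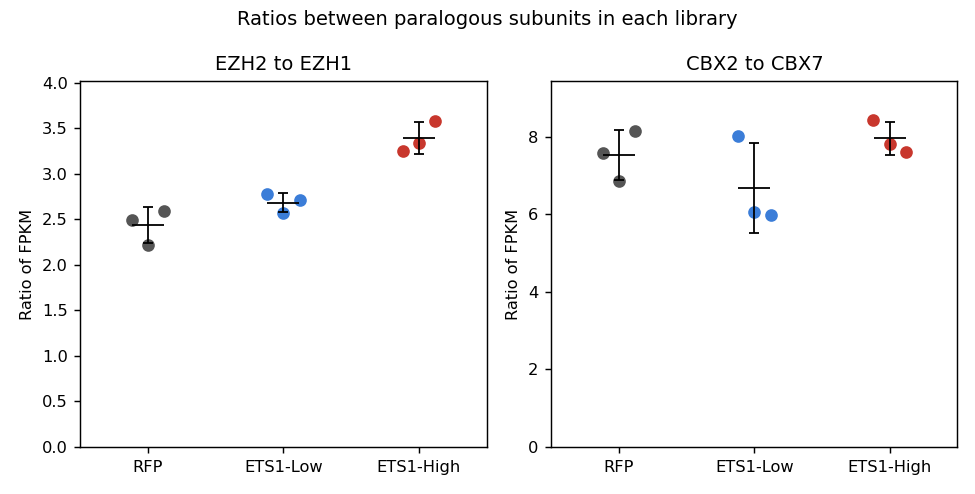
Ratio of FPKM values (y axis, from 0) of EZH2 to EZH1 and of CBX2 to CBX7 in each library (points), with bars at the mean and SD of 3 libraries per group. EZH2 to EZH1 is 3.25 to 3.58 in ETS1-High and 2.22 to 2.78 in the other libraries, while the CBX2 to CBX7 ratios of the 3 groups overlap.

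EED, the PRC2 subunit that reads the trimethyl mark and activates the enzyme, had 24.7, 25.1 and 23.6 CPM in RFP, 33.0, 32.6 and 30.0 in ETS1-Low and 31.9, 31.8 and 34.0 in ETS1-High. Both ETS1 groups lay above RFP and overlapped with each other. EED (chromosome 11, 86201212 to 86278813, plus strand) rose by 0.41 in ETS1-High (SE 0.05, adjusted p 1.88e-11, edgeR) and by 0.38 in ETS1-Low (adjusted p 2.58e-10, edgeR), and the ETS1 groups differed by 0.03, with a 95% interval of -0.06 to 0.12. Its 89 tested neighbours within 10 Mb had medians of 0.35 (ETS1-High) and 0.33 (ETS1-Low) against RFP, so EED stood 0.06 and 0.05 above its neighbours. The part of this regional shift in the rise of EED was not tested.

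SUZ12, the scaffold of PRC2, had 98.0, 94.1 and 94.1 CPM in RFP, 111, 104 and 108 in ETS1-Low and 102, 106 and 109 in ETS1-High. Both ETS1 groups lay above RFP and overlapped with each other. SUZ12 (chromosome 17, 31937007 to 32001038, plus strand) rose by 0.15 in ETS1-High (SE 0.03, adjusted p 9.92e-05, edgeR) and by 0.17 in ETS1-Low (adjusted p 7.45e-06, edgeR), but on FPKM values by 0.02 and 0.03, neither called. Its counts were not whole in 9 of 9 libraries, so its level is uncertain. EED and SUZ12 differed less between the ETS1 groups than from RFP, with a 95% interval of -0.09 to 0.04 for SUZ12 between ETS1-High and ETS1-Low.

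**Figure D3:**
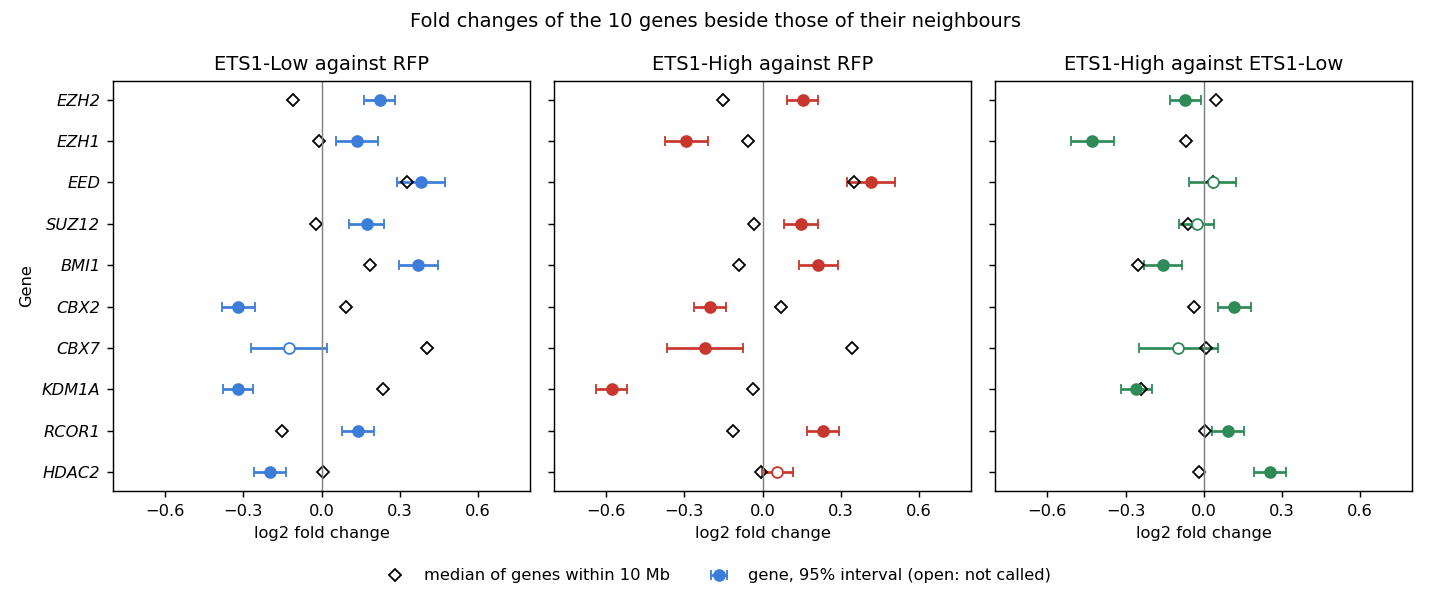
Log2 fold changes from edgeR (x axis) of the 10 genes (y axis) in the 3 comparisons, with 95% intervals as bars, filled where called, and the median of the tested genes within 10 Mb as diamonds. In CPM KDM1A is at -0.58 and EED at 0.41 in ETS1-High against RFP, and the neighbours of EED are at 0.35. The rises of EZH1 and RCOR1 in ETS1-Low turn to -0.05 and -0.01 on FPKM values.

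BMI1, the PRC1 subunit that activates the ubiquitin ligases RING1 and RNF2 and is known for silencing the CDKN2A locus, had 46.8, 43.9 and 43.7 CPM in RFP, 58.7, 56.2 and 58.9 in ETS1-Low and 50.7, 52.4 and 52.7 in ETS1-High. ETS1-Low was highest, ETS1-High lay between, and no groups overlapped. BMI1 (chromosome 10, 22321099 to 22331484, plus strand) rose by 0.37 in ETS1-Low (SE 0.04, adjusted p 9.52e-13, edgeR) and by 0.21 in ETS1-High (SE 0.04, adjusted p 1.39e-06, edgeR), and ETS1-High was below ETS1-Low by -0.16 (adjusted p 0.000259, edgeR). On FPKM values the rise in ETS1-High was 0.02 and was not called. The counts of BMI1 were not whole in 9 of 9 libraries, and the readthrough gene COMMD3-BMI1 on the same strand held 153 to 246 counts per library beside 1997 to 2528 of BMI1, so its level is uncertain. The 84 neighbours within 10 Mb were at 0.19 in ETS1-Low against RFP and at -0.25 between the ETS1 groups.

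CBX2, a chromodomain subunit that compacts chromatin, had 113, 109 and 110.4 CPM in RFP, 87.9, 87.9 and 90.6 in ETS1-Low and 96.9, 96.4 and 95.7 in ETS1-High. RFP was highest and ETS1-Low lowest, without overlap. CBX2 (chromosome 17, 79778148 to 79787983, plus strand) fell by 0.32 in ETS1-Low (SE 0.03, adjusted p 3.39e-13, edgeR) and by 0.20 in ETS1-High (SE 0.03, adjusted p 7.49e-08, edgeR), and ETS1-High was above ETS1-Low by 0.12 (adjusted p 0.00119, edgeR). BMI1 and CBX2 thus both stood farthest from RFP in ETS1-Low, in opposite directions.

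CBX7 had 11.1, 12.5 and 11.1 CPM in RFP, 9.49, 11.3 and 10.9 in ETS1-Low and 9.80, 9.74 and 10.2 in ETS1-High. ETS1-High lay below RFP and ETS1-Low overlapped with both. CBX7 (chromosome 22, 39120167 to 39152680, minus strand) fell by 0.22 in ETS1-High (SE 0.07, adjusted p 0.00592, edgeR), and without RFP replicate 2 it was -0.16 and not called. In ETS1-Low against RFP the difference was -0.12 (adjusted p 0.121, edgeR), and it was called at -0.17 with upper-quartile factors. The 230 neighbours of CBX7 within 10 Mb went the other way, with medians of 0.34 (ETS1-High) and 0.40 (ETS1-Low). The ratio of CBX2 to CBX7 in FPKM was 7.53 ± 0.65 in RFP, 6.68 ± 1.15 in ETS1-Low and 7.96 ± 0.42 in ETS1-High (SD, n = 3), with overlap between all groups and exact permutation p of 0.3 to 0.4.

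Other genes of the same complexes were read from lists drawn up from general knowledge. Among 9 PRC2 cofactors tested, 3 were called higher and 6 lower in ETS1-High against RFP, with a median log2 fold change of -0.24 against -0.01 over all tested genes. In ETS1-Low against RFP 4 were higher and 4 lower, with a median of 0.00. The shares over all genes were 37.0% higher and 37.2% lower in ETS1-High, and 37.9% and 36.2% in ETS1-Low. On FPKM values 1 was higher and 6 lower in ETS1-High and 2 were higher and 3 lower in ETS1-Low. PHF19, a Polycomb-like subunit that binds methylated lysine 36 of histone H3 and guides PRC2 to active genes, rose most, from 43.7 ± 2.24 CPM in RFP to 84.7 ± 1.58 in ETS1-Low and 187 ± 0.46 in ETS1-High (SD, n = 3). This was a log2 fold change of 2.10 for ETS1-High against RFP (SE 0.03, adjusted p 4.15e-45, edgeR), 0.96 for ETS1-Low against RFP and 1.14 from ETS1-Low to ETS1-High, while its 175 neighbours were at -0.04, -0.43 and 0.37.

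JARID2, which recruits PRC2 and stimulates it, changed in the other direction, with 91.0 ± 2.22 CPM in RFP, 35.7 ± 1.11 in ETS1-Low and 50.0 ± 0.72 in ETS1-High. It fell by 1.35 in ETS1-Low (SE 0.04, adjusted p 1.29e-35, edgeR) and by 0.86 in ETS1-High (adjusted p 4.88e-28, edgeR), with neighbours at -0.03 and 0.02. LCOR, whose locus also encodes a PRC2 subunit, fell by 0.65 in ETS1-High, where its 157 neighbours were at -0.49, and by 0.22 in ETS1-Low, the latter not called on FPKM values. EPOP, a PRC2 subunit known to limit its binding, fell by 0.59 in ETS1-High and by 0.33 in ETS1-Low. RBBP4, a histone chaperone shared with NuRD, was lower in ETS1-High (-0.25) and higher in ETS1-Low (0.16). MTF2, a paralogue of PHF19, was lower in ETS1-High (-0.24) and at 0.15 in ETS1-Low, where FPKM values gave -0.07. In ETS1-High and ETS1-Low the neighbours of RBBP4 were at -0.08 and 0.19, and those of MTF2 at 0.09 and 0.18.

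**Figure D4:**
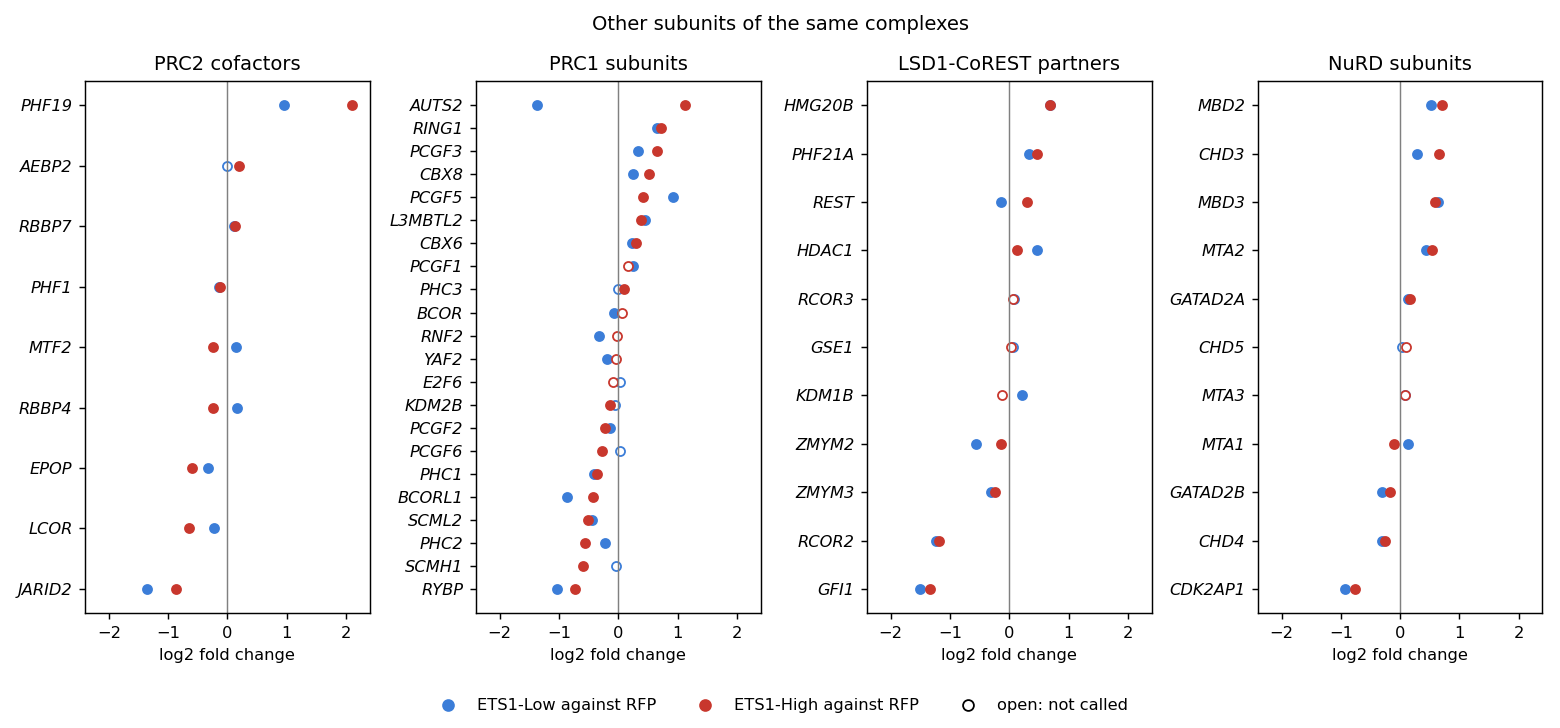
Log2 fold changes from edgeR (x axis) of the other tested subunits of PRC2, PRC1, the LSD1-CoREST complex and NuRD (y axis) in ETS1-Low (blue) and ETS1-High (red) against RFP, filled where called. In ETS1-High PHF19 is at 2.10, RING1 at 0.72 and HMG20B at 0.69, and JARID2 at -0.86, RYBP at -0.74 and RCOR2 at -1.19. Of the subunits called higher in CPM, HDAC1 and GATAD2A in ETS1-High are lower on FPKM values, as are RBBP7, MTF2, RCOR3, MTA1 and GATAD2A in ETS1-Low. Some that were not called, such as BCOR and GSE1 in ETS1-High, also turn.

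Of 22 further PRC1 subunits, 8 were higher and 9 lower in ETS1-High against RFP, and 7 were higher and 10 lower in ETS1-Low against RFP, with medians of -0.03 and -0.04. Over all genes 37.0% were higher and 37.2% lower in ETS1-High, and 37.9% and 36.2% in ETS1-Low. On FPKM values 7 of the 22 were higher and 12 lower in ETS1-High, and 4 were higher and 12 lower in ETS1-Low, with medians of -0.13 and -0.15. RING1, a ubiquitin ligase of PRC1, rose by 0.72 and 0.66 in ETS1-High and ETS1-Low. RYBP, the subunit that defines variant PRC1 without a CBX protein, fell by 0.74 in ETS1-High (adjusted p 1.63e-24, edgeR) and by 1.03 in ETS1-Low. SCMH1 fell by 0.59 in ETS1-High and was not called in ETS1-Low at -0.03, where FPKM values gave -0.28, called. PHC2, a polyhomeotic subunit that forms polymers, fell by 0.55 and 0.22 in ETS1-High and ETS1-Low. BCORL1, a subunit of variant PRC1, fell by 0.42 in ETS1-High and by 0.86 in ETS1-Low, where its 66 neighbours were at -0.51. PCGF5, a paralogue of BMI1 found in variant PRC1, rose by 0.41 in ETS1-High and by 0.92 in ETS1-Low. PCGF3, another such paralogue, went from 38.5 ± 0.94 CPM in RFP to 48.4 ± 0.68 in ETS1-Low and 60.4 ± 0.36 in ETS1-High, a rise of 0.33 in ETS1-Low and of 0.65 in ETS1-High (SE 0.04, adjusted p 4.61e-22, edgeR). L3MBTL2, a subunit of variant PRC1, rose by 0.39 in ETS1-High and by 0.46 in ETS1-Low, and its 236 neighbours stood at nearly the same values, 0.38 and 0.45. AUTS2, which is known to turn a variant PRC1 into an activator, was called in opposite directions, at 4.44 ± 0.27 CPM in RFP, 1.71 ± 0.24 in ETS1-Low and 9.71 ± 0.72 in ETS1-High, or -1.37 in ETS1-Low and 1.13 in ETS1-High.

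Of 11 further LSD1-CoREST genes tested, 4 were higher and 4 lower in ETS1-High against RFP, and 5 were higher and 5 lower in ETS1-Low against RFP. Over all genes 37.0% were higher and 37.2% lower in ETS1-High, and 37.9% and 36.2% in ETS1-Low. On FPKM values, with 10 tested, 2 were higher and 5 lower in ETS1-High and 3 were higher and 5 lower in ETS1-Low. RCOR2, the CoREST paralogue of stem and neural cells, fell by 1.19 in ETS1-High (SE 0.10, adjusted p 5.82e-16, edgeR) and by 1.23 in ETS1-Low, from 9.23 ± 0.62 CPM in RFP to 3.93 ± 0.41 in ETS1-Low and 4.04 ± 0.53 in ETS1-High, while its 305 neighbours were at 0.40 and 0.45. HMG20B, a DNA-binding subunit of the complex, rose by 0.69 and 0.70 in ETS1-High and ETS1-Low. PHF21A, which reads unmethylated lysine 4, rose by 0.47 and 0.34, with its 57 neighbours at 0.31 and 0.28. ZMYM2 and ZMYM3, zinc finger partners of the complex, fell by 0.14 and 0.25 in ETS1-High and by 0.56 and 0.30 in ETS1-Low. HDAC1 rose by 0.47 in ETS1-Low, and its 0.12 in ETS1-High was -0.02 on FPKM values. REST, the factor that brings CoREST to neuronal genes, rose by 0.30 in ETS1-High (adjusted p 1.19e-09, edgeR; 0.11 and not called on FPKM values) and fell by 0.14 in ETS1-Low (adjusted p 0.00176, edgeR).

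Of 11 NuRD subunits, 5 were higher and 4 lower in ETS1-High against RFP, and 6 were higher and 3 lower in ETS1-Low against RFP. Among all genes the shares were 37.0% higher and 37.2% lower in ETS1-High, and 37.9% and 36.2% in ETS1-Low. On FPKM values, with 10 tested, 4 were higher and 4 lower in ETS1-High and 4 were higher and 3 lower in ETS1-Low. The helicase CHD3 rose from 579 ± 20.9 CPM in RFP to 708 ± 15.2 in ETS1-Low and 909 ± 17.4 in ETS1-High, by 0.65 in ETS1-High (adjusted p 3.21e-25, edgeR). Its paralogue CHD4 fell, from 425 ± 14.2 CPM to 344 ± 9.50 and 355 ± 10.4, by 0.26 in ETS1-High (adjusted p 1.19e-10, edgeR) and by 0.30 in ETS1-Low. MBD2 and MBD3, alternative subunits of the complex, rose by 0.70 and 0.59 in ETS1-High and by 0.51 and 0.64 in ETS1-Low. Their neighbours were at 0.29 and 0.21 in ETS1-High and at 0.30 and 0.31 in ETS1-Low. MTA2, a scaffold of the complex, rose by 0.54 in ETS1-High and 0.44 in ETS1-Low, with its 293 neighbours at 0.40 and 0.45. GATAD2B fell by 0.17 and 0.31, with its 309 neighbours at -0.16 and -0.11. CDK2AP1 fell by 0.76 in ETS1-High and by 0.93 in ETS1-Low.

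Enzymes that work against Polycomb were read in the same way. Of 11 tested, 2 were higher and 5 lower in ETS1-High against RFP, and 2 were higher and 8 lower in ETS1-Low against RFP, with medians of -0.07 and -0.15, against 37.0% of all genes higher and 37.2% lower in ETS1-High and 37.9% and 36.2% in ETS1-Low. Between the ETS1 groups 5 were higher in ETS1-High and 0 lower, with a median of 0.11, against 29.9% and 29.3% of all genes. KDM6B, which removes the PRC2 mark, fell by 0.42 in ETS1-High (adjusted p 1.62e-15, edgeR) and by 0.53 in ETS1-Low. NSD1, which methylates lysine 36 and so limits PRC2, fell by 0.36 and 0.39. ASXL2, a cofactor of the H2A deubiquitinase BAP1, rose by 0.78 in ETS1-High and by 0.34 in ETS1-Low.

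Genes known as Polycomb targets were read next. Of 27 developmental regulators that carry the PRC2 mark in many cell types, 18 had counts enough to be tested. In ETS1-High against RFP 10 were higher and 6 lower, with a median of 0.68, and in ETS1-Low against RFP 8 were higher and 8 lower, with a median of -0.17. Over all genes 37.0% were higher and 37.2% lower in ETS1-High, and 37.9% and 36.2% in ETS1-Low. The median of the list in ETS1-Low was 0.25 over the 12 genes with enough FPKM, so its sign depends on which genes are kept. Between the ETS1 groups 14 of 18 were higher and 2 lower in ETS1-High, against 29.9% of all tested genes called higher and 29.3% lower. The median was 0.94, or 0.88 without LHX2, which had at most 3 counts per library in both groups. LHX2 is among those called higher, and so are 2 other genes with few counts. GATA6 had at most 5 counts in an ETS1-Low library and 14 in an ETS1-High library, and TBX15 had at most 11 and 22.

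GATA2, a factor of blood and neural development, had 10.2 ± 0.54 CPM in RFP, 21.2 ± 1.04 in ETS1-Low and 68.2 ± 1.12 in ETS1-High, and rose by 2.74 in ETS1-High (SE 0.05, adjusted p 4e-44, edgeR). TBX3 rose from 40.3 ± 1.53 to 93.5 ± 1.34 and 186 ± 5.40 CPM, by 2.21 in ETS1-High (adjusted p 4.99e-46, edgeR). PAX6, a factor of eye and brain development, rose by 1.95 in ETS1-High and by 1.37 in ETS1-Low. FOXF1, a factor of lung and gut mesenchyme, rose from 0.31 ± 0.02 CPM, or at most 16 counts in an RFP library, to 6.16 ± 0.17 and 13.7 ± 1.44. LHX9 fell from 13.6 ± 0.47 CPM in RFP to 0.24 ± 0.07 in ETS1-Low and 3.45 ± 0.14 in ETS1-High. MSX1, a homeobox factor of craniofacial and limb development, fell by 0.57 in ETS1-High and by 0.36 in ETS1-Low. CDKN1C, an imprinted inhibitor of the cell cycle, fell by 1.63 in ETS1-Low, and its -0.34 in ETS1-High was not called with the Wald test of DESeq2.

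Of 22 neuronal genes known to be bound by REST and CoREST, 14 were tested. In ETS1-High against RFP 5 were higher and 7 lower, with a median of -0.36, and in ETS1-Low against RFP 4 were higher and 8 lower, with a median of -0.66. The shares over all genes were 37.0% higher and 37.2% lower in ETS1-High, and 37.9% and 36.2% in ETS1-Low. Over the 6 genes of the list with enough FPKM the medians were 0.57 and 0.41, so their sign depends on which genes are kept. SCG2, a secretory granule protein, rose from 31.9 ± 1.31 CPM to 59.8 ± 1.03 in ETS1-Low and 129 ± 4.80 in ETS1-High, and SCN2A, a sodium channel, from 2.79 ± 0.21 to 16.7 ± 0.38 and 19.2 ± 1.48. GRIN1, a subunit of NMDA receptors, rose by 2.31 in ETS1-High and by 2.09 in ETS1-Low. CELSR3 fell from 16.4 ± 0.94 to 7.35 ± 0.73 and 4.06 ± 0.09 CPM, and BDNF from 6.12 ± 0.22 to 0.98 ± 0.10 and 4.31 ± 0.15.

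**Figure D5:**
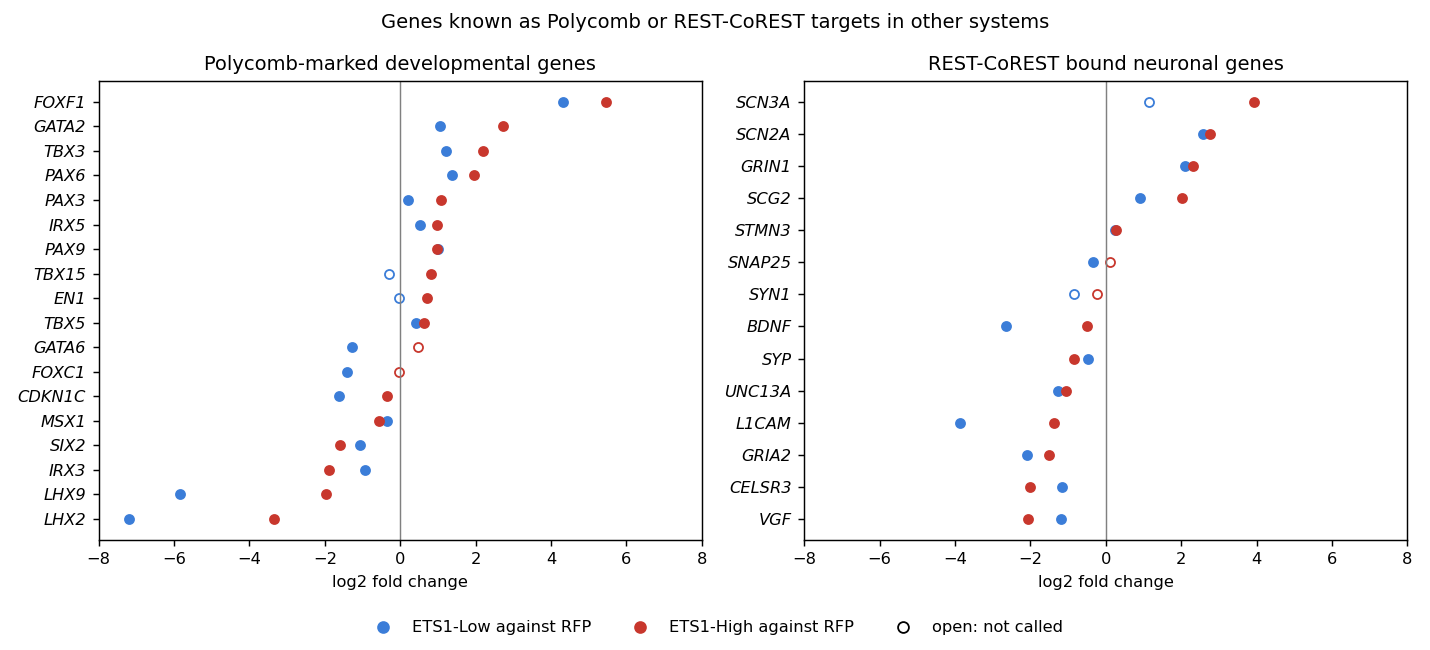
Log2 fold changes from edgeR (x axis) of tested genes (y axis) known as Polycomb targets (left) or as neuronal targets of REST and CoREST (right), in ETS1-Low (blue) and ETS1-High (red) against RFP, filled where called. Both lists spread to either side of 0, with FOXF1 at 5.47 and LHX9 at -1.97 in ETS1-High. LHX2, with at most 3 counts per library in both ETS1 groups, and SCN3A, with at most 3 in RFP, are fitted values that depend on the prior count.

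LOX and TGFBR2 are known as genes that EWSR1::FLI1 represses through LSD1 and NuRD. LOX, a collagen crosslinking enzyme, had 4.90 ± 0.12 CPM in RFP, 3.46 ± 0.28 in ETS1-Low and 17.5 ± 1.15 in ETS1-High. It rose by 1.83 in ETS1-High (SE 0.08, adjusted p 5.16e-27, edgeR) and fell by 0.50 in ETS1-Low (adjusted p 7.11e-06, edgeR), where FPKM values gave -0.22, not called. TGFBR2, a receptor of TGF-beta, had 5.90 ± 0.44, 28.9 ± 1.08 and 59.3 ± 1.61 CPM, and rose by 3.33 in ETS1-High (SE 0.05, adjusted p 1.38e-45, edgeR) and by 2.29 in ETS1-Low.

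Of 5 genes reported as linked to EZH2 in Ewing cells, 4 were tested. EMP1, a membrane protein of epithelial differentiation, had 177 ± 4.49 CPM in RFP, 34.0 ± 1.14 in ETS1-Low and 57.2 ± 0.53 in ETS1-High, and fell by 2.38 in ETS1-Low (SE 0.03, adjusted p 4.81e-47, edgeR) and by 1.63 in ETS1-High. NGFR fell by 0.35 in ETS1-High and by 0.16 in ETS1-Low, and EPHB2 was lower in ETS1-Low (-0.24) and higher in ETS1-High (0.24), where FPKM values gave 0.07, not called. GAP43, a growth cone protein, had 103 ± 3.30 CPM in RFP, and at most 7 counts in any ETS1-Low library and 4 in any ETS1-High library. So few counts give no fold change that is independent of the fitted model.

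Levels of EZH2 and other subunits are known to follow cell division, so a list of 20 proliferation genes was read beside them. In ETS1-High against RFP 11 were higher and 6 lower, and in ETS1-Low against RFP 16 were higher and 3 lower, with medians of 0.16 and 0.20, against 37.0% and 37.9% of all genes higher and 37.2% and 36.2% lower. On FPKM values 9 were higher and 7 lower in ETS1-High and 10 were higher and 4 lower in ETS1-Low, with medians of 0.03 and 0.07. EZH2 rose by 0.15 and 0.22 in CPM in the same comparisons. On FPKM values it was at 0.05 in ETS1-High, not called, and at 0.09 in ETS1-Low. The summed level of the list was 1915 to 1929 FPKM in RFP, 2119 to 2158 in ETS1-Low and 2075 to 2115 in ETS1-High. RRM2 and TYMS, enzymes of nucleotide synthesis, rose most, by 1.35 and 1.17 in ETS1-High, while E2F1, a known activator of EZH2, fell by 0.38 in ETS1-High and by 0.11 in ETS1-Low. The part of proliferation genes in the levels of EZH2 was not tested.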

How the data were processed

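RNA from 9 libraries, 3 per group, was measured by RNA-seq with a stranded kit, per the labels' protocols. Per the file headers, the authors deposited expected counts and FPKM values per gene, both made with RSEM. Expected counts divide reads that fit several genes. The submitters' processing notes name STAR 2.7.3, cutadapt 4.4, featureCounts of Subread 2.0.3, limma 3.38.3 and GRCh38/hg38, without saying what each was used for. The version of RSEM, the annotation release and the use of strand in counting are not given in the sources used here. Columns were matched to libraries by name, reading L and H as Low and High, and 0 were left over.

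After rounding, the expected counts were fitted with edgeR 4.0.16 under R 4.3.3 (robust glmQLFit, TMM factors, filterByExpr by group, all 9 libraries, group as the only term). Adjusted p-values (Benjamini-Hochberg) are over 17235 genes, and a gene was called under 0.05. No p-value adjusted over the 10 genes alone was computed. CPM are on TMM-scaled library sizes, and fold changes are on the log2 scale, first group minus second. The deposited FPKM values served to compare genes with each other, for ratios, and in limma 3.58.1 as log2(FPKM + 1) for genes with a mean of at least 1. Over 13150 such genes they shift the log2 fold changes by a median of -0.11 in ETS1-High against RFP, -0.14 in ETS1-Low against RFP and 0.03 in ETS1-High against ETS1-Low relative to CPM, since FPKM are scaled to the whole library. Positions are those of GENCODE v44, in which 17076 tested genes (99.1%) were found. Another 45 rows are copies of pseudoautosomal genes on the Y chromosome and were not read as list genes. Replicate libraries differed by more than sampling noise (chi-square per gene 2.66 to 5.19), and each was counted as 1 library. This excess may be technical and does not show that the libraries came from separate cultures. The scripts were tested on simulated counts in which few genes changed, and only in ETS1-High. That test does not cover the scaling of libraries where most genes are called, as in these data.

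The 10 genes and all gene lists were chosen with earlier results of these data known, and nothing is supported by the choice. A few genes of these lists are not reported here, and counts and medians of the lists are over the others. Beside ETS1 and the 10 genes, the rule for naming list genes takes, per comparison, up to 3 called in each direction with the largest change and a mean of at least 100 counts, and lists of 5 or fewer in full. Not every gene it takes is given with values. LHX2, SCN3A, CD14, CD68 and genes whose sign turned on FPKM values were named after their values were seen. The checks of list genes under other scalings, the medians of neighbours of list genes and the treatment of genes at the floor of 3 counts were chosen after seeing the data. Counts from PCR-amplified libraries without molecular identifiers cover counting error only.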

Additional observations from a re-analysis of the deposited data

Results flagged for a closer look

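Of the 10 genes, 7 differed between the ETS1 groups in their change against RFP, by the direct test of ETS1-High against ETS1-Low (edgeR quasi-likelihood, adjusted over all genes, 59.2% of which were called). EZH1 was lower in ETS1-High by -0.43 and KDM1A by -0.26, BMI1 by -0.16 and EZH2 by -0.070. HDAC2 was higher in ETS1-High by 0.25, CBX2 by 0.12 and RCOR1 by 0.092. For EZH1 and HDAC2 the ETS1 groups lay on different sides of RFP in CPM, but not on FPKM values. HDAC2 in ETS1-High was not called against RFP and stood at -0.06 on FPKM values. EZH1 in ETS1-Low also had the opposite sign on FPKM values. KDM1A and its neighbours on chromosome 1 differed by nearly the same amount between the ETS1 groups (-0.26 and -0.24).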

How the results depend on the processing

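Of the fold changes of the 10 genes under other settings, 270 kept their call, and their direction where called. Another 23 lost the call, 1 gained it and 6 reversed. With each library left out in turn 261 kept the call, and the direction where called, 8 lost the call and 1 gained it. Changes called under neither setting count as kept even where their sign turned. An example is HDAC2 in ETS1-High against RFP, at 0.06 in CPM and -0.06 on FPKM values. Most that changed did so on FPKM values, whose median shift is given with the processing. Limits are that 3 libraries per group give no measure of spread between clones, that changes of up to 0.21 on the log2 scale, that of BMI1 in ETS1-High against RFP, lost their call on filtered FPKM values, and that CBX7, with 359 to 588 counts per library, has the widest intervals.

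With upper-quartile factors EZH1 in ETS1-Low against RFP was 0.085 and lost its call, and CBX7 was -0.17 and gained it. For EZH2 in ETS1-High against ETS1-Low the call was lost with DESeq2 size factors (-0.059), the Wald test of DESeq2 1.42.0 (-0.059), no filter on low counts (-0.068) and FPKM with a pseudocount of 1 (-0.0345) or 0.1 (-0.0351) or without filter (-0.0345). On log2(FPKM + 1), log2(FPKM + 0.1) and log2(FPKM + 1) without filter, calls in ETS1-High against RFP were lost for EZH2 (0.053, 0.054, 0.053), SUZ12 (0.024, 0.025, 0.024) and BMI1 (0.021, 0.022, 0.021). In ETS1-Low against RFP the call of SUZ12 was lost (0.0265, 0.0275, 0.0265), and EZH1 (-0.0498, -0.052, -0.0498) and RCOR1 (-0.009, -0.0092, -0.009) reversed. Without filter FPKM also lost CBX7 in ETS1-High against RFP (-0.32), BMI1 in ETS1-Low against RFP (0.18), and BMI1 (-0.16) and CBX2 (0.10) between the ETS1 groups, which left 5, 5 and 4 of the 10 genes called in the 3 comparisons. Over all genes the share of higher among called genes was 49.8% and 51.2% against RFP in ETS1-High and ETS1-Low, and 38.1% and 36.5% on FPKM without filter.

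Leaving out each library in turn gave -0.078 to -0.0575 for EZH2 and 0.072 to 0.12 for RCOR1 in ETS1-High against ETS1-Low, 0.10 to 0.18 for EZH1 in ETS1-Low against RFP, and -0.25 to -0.16 for CBX7 and 0.030 to 0.078 for HDAC2 in ETS1-High against RFP, with 8 to 10, 8 to 9 and 5 to 7 of the 10 genes called. Where a group keeps 2 libraries the spread is pooled over groups. The replicate numbers did not pair the libraries: the 9 same-number correlations ran from -0.03 to 0.03, and 0 were over 0.1. With a replicate block 12701, 12729 and 10122 genes and 9, 9 and 7 of the 10 genes were called, and EZH2 in ETS1-High against ETS1-Low was -0.07.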
